A study of Mus musculus with 36 samples.

Results

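Wnt ligands are secreted glycoproteins with which cells signal to their neighbors, and 7 of them, Wnt4, Wnt5a, Wnt6, Wnt7b, Wnt10a, Wnt10b and Wnt16, were followed in mouse submandibular salivary glands. The 7 genes were chosen by name, out of 19 Wnt ligand genes and 29219 genes with at least 1 transcript count. Earlier results of these data were known at that choice, so counts of members called are descriptions. All 7 were detected, as were 8 of the 12 other Wnt ligands. Single-cell transcriptomes had been recorded by Drop-seq, in which a droplet joins 1 cell with a barcoded bead and a unique molecular identifier (UMI) marks each captured transcript. Of the 26 glands, 12 were control (6 at postnatal day 40, P40, and 6 at P90) and 14 double-mutant (7 at each stage), and every group held females and males. A control mouse carried K14-Cre and the Cre-inducible R26-EYFP reporter. A double-mutant mouse carried K14-Cre and R26-EYFP together with a β-catenin gain-of-function allele and loss of Bmpr1a, and bore salivary gland tumors. All mice were on a C57BL/6 background. The K14 promoter drives Cre in basal epithelial cells, so recombination was directed to these cells and their descendants. RNA of 4 further glands at P70 (2 control, 2 double-mutant) had been recorded by CITE-seq from live cells, and bulk RNA of 1 female control gland at P70 and 1 female double-mutant gland at P100 had also been sequenced.

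Wnt proteins are lipid-modified by Porcn, escorted to the cell surface by Wls, and bind Frizzled receptors. With the coreceptors Lrp5 or Lrp6 this binding keeps β-catenin from being degraded, and β-catenin then switches on target genes with Tcf/Lef factors. Wnt5a is best known for signaling without β-catenin, through Ror2. A gain-of-function allele of β-catenin acts downstream of the ligands.

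In the mm10 coordinates of the bulk count table, Wnt4 lay on the plus strand of chromosome 4 (137277489 to 137299726) and Wnt5a on the plus strand of chromosome 14 (28504750 to 28527447). Wnt6 (74771892 to 74785322) and Wnt10a (74791516 to 74804179) are neighbors on the plus strand of chromosome 1. Wnt7b (85535439 to 85581821) and Wnt10b (98771753 to 98778150) were on the minus strand of chromosome 15, and Wnt16 on the plus strand of chromosome 6 (22288227 to 22298522). In the GENCODE vM21 annotation, exons of Wnt5a and Wnt7b overlap those of the antisense genes Gm2670 and AU022754. Start-site sequences from RefSeq (GRCm38.p6) were at hand for 4 of the 7 genes, Wnt4, Wnt6, Wnt10b and Wnt16. The 250 bases upstream are shown for Wnt6 and Wnt16, because 82.5% and 89.7% of their UMIs in double-mutant glands lay in 1 cell population, at chr1:74771642-74771891 on the plus strand and chr6:22287977-22288226 on the plus strand. Capitals would mark the Tcf/Lef motif CTTTGNT on either strand.
Wnt6: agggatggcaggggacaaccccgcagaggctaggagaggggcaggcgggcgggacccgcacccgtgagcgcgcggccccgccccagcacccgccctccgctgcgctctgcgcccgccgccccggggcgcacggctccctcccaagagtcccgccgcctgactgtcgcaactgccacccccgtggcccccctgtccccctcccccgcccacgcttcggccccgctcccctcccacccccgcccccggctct
Wnt16: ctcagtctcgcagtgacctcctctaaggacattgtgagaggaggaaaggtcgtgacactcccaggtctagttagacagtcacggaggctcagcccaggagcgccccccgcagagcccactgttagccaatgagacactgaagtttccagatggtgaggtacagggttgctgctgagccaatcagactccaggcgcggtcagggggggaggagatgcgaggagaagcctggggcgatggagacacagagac
Neither window held the motif, nor did those of Wnt4 and Wnt10b, and 5248 of 32851 upstream windows of the same length (16%) held it. Of the windows shown, 79.6% of the bases were G or C for Wnt6 and 59.2% for Wnt16.

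The deposited barcodes of a gland summed to between 777537 and 7013325 UMIs, and the group medians were 4423212 (P40) and 1991484 (P90) for control and 2736815 (P40) and 906893 (P90) for double-mutant glands. Of 26987 barcodes, 23346 were kept as cells, and 14 barcodes occurred in more than 1 library. In 2 double-mutant libraries of batch B11 the sex-linked genes went against the labeled sex, and values without them are given beside the results they touch most. P40 replicate 1, labeled male, had 708 Xist and 1 Y-linked UMIs, and P90 replicate 5, labeled female, had 1 and 225. A swap of the 2 would also exchange their stages, and was not tested. Cre acts on parts of the β-catenin and Bmpr1a genes that these transcript-end counts do not resolve, so the targeted genes checked nothing here. The ligands were rare transcripts. Wnt4 gave 1578 UMIs over the 26 glands, Wnt5a 197, Wnt10a 95, Wnt6 73, Wnt16 43, Wnt7b 19 and Wnt10b 14. UMIs of each gland were summed, and levels are given as CPM, the count per 1000000 UMIs of the gland.

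Wnt5a, Wnt16 and Wnt7b were higher in double-mutant than in control glands, and the other members did not pass the test. Genotype was compared over the 26 glands with sex and stage as covariates by edgeR's quasi-likelihood test on the summed UMIs, with p-values adjusted by Benjamini-Hochberg over all genes tested. Of 18039 genes tested, 2525 (14%) passed an adjusted p of 0.05, 1842 (10.2%) higher and 683 (3.79%) lower in double-mutant glands. Without TMM, the scaling that corrects for a few abundant genes, 6886 genes passed and 6826 of these were higher, and the median log2 fold change of all genes moved from 0.05 to 0.72. CPM carry no such scaling, so pooled folds, counts of glands above controls, batch means and permutations of CPM include this shift. Of the 7 ligands, 6 passed the filter on low counts, 3 of the 6 rose and none fell. Wnt7b and Wnt16 passed this filter only through their double-mutant UMIs, so neither could readily have been called lower. Wnt10b was too rare to be tested. Summed counts of a gland do not tell more cells of a type from more RNA per cell.

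The level of Wnt5a, a ligand of Ror2, ranged in control glands from 0 through a median of 0.0715 to 2.58 CPM. In double-mutant glands it ranged from 0 through a median of 6.77 to 42.4 CPM. Of the 14 double-mutant glands 10 lay above the highest control gland, while 3 had no Wnt5a UMI, so the groups overlapped. Over all glands 179 UMIs were counted in double-mutant and 18 in control glands, a 12.4-fold higher pooled level. The log2 fold change was 3.21 ± 0.71 (SE) with an edgeR adjusted p of 0.00342. Without the 2 libraries of doubtful sex it was 3.10 (edgeR adjusted p 0.00967), and with the batch as a further factor it was 3.11 ± 0.88 (adjusted p 0.0627).

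Wnt16, known for its role in bone, was at 0 in all control glands at P40, and the highest control gland, at P90, had 1.15 CPM. Double-mutant glands ranged from 0 through a median of 0.657 to 10.1 CPM. Wnt16 was detected in 7 of 14 double-mutant glands and in 3 of 12 control glands, and all 7 lay above the highest control gland. That control value rested on 2 UMIs. In the shallow libraries of double-mutant P90 replicates 4 and 5, 1 UMI is 1.25 and 1.45 CPM, so there detection alone placed a gland above it. The counts behind this were 39 and 4 UMIs, a 12.1-fold higher pooled level. The log2 fold change was 2.76 ± 0.82 (edgeR adjusted p 0.0235), and 2.68 (adjusted p 0.0405) without the 2 libraries of doubtful sex. With batch as a factor it was 2.32 ± 1.121 (adjusted p 0.254), without the 4 double-mutant glands of batch B11 it was 2.44 (adjusted p 0.0572), without double-mutant P90 replicate 6 it was 2.26 (adjusted p 0.0616), and with all glands thinned to the depth of the shallowest it was 1.58 (adjusted p 0.125).

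Wnt7b, which acts in lung and kidney development, had no UMI in any of the 12 control glands, where 3 counts over the group would be 0.0754 CPM. Double-mutant glands ranged from 0 through a median of 0.219 to 10.1 CPM, with 19 UMIs in 7 of 14 glands. The pooled level was at least 7.88-fold higher in double-mutant glands, and the fitted log2 fold change was 3.58 ± 1.01 (edgeR adjusted p 0.0246). The call needed 1 gland. Double-mutant P90 replicate 5, a gland of batch B11 whose sex-linked genes went against its label, held 7 of the 19 UMIs, and without it Wnt7b fell below the filter and could not be tested. With batch as a factor the log2 fold change was 2.52 ± 1.20 (adjusted p 0.266).

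**Figure D1:**
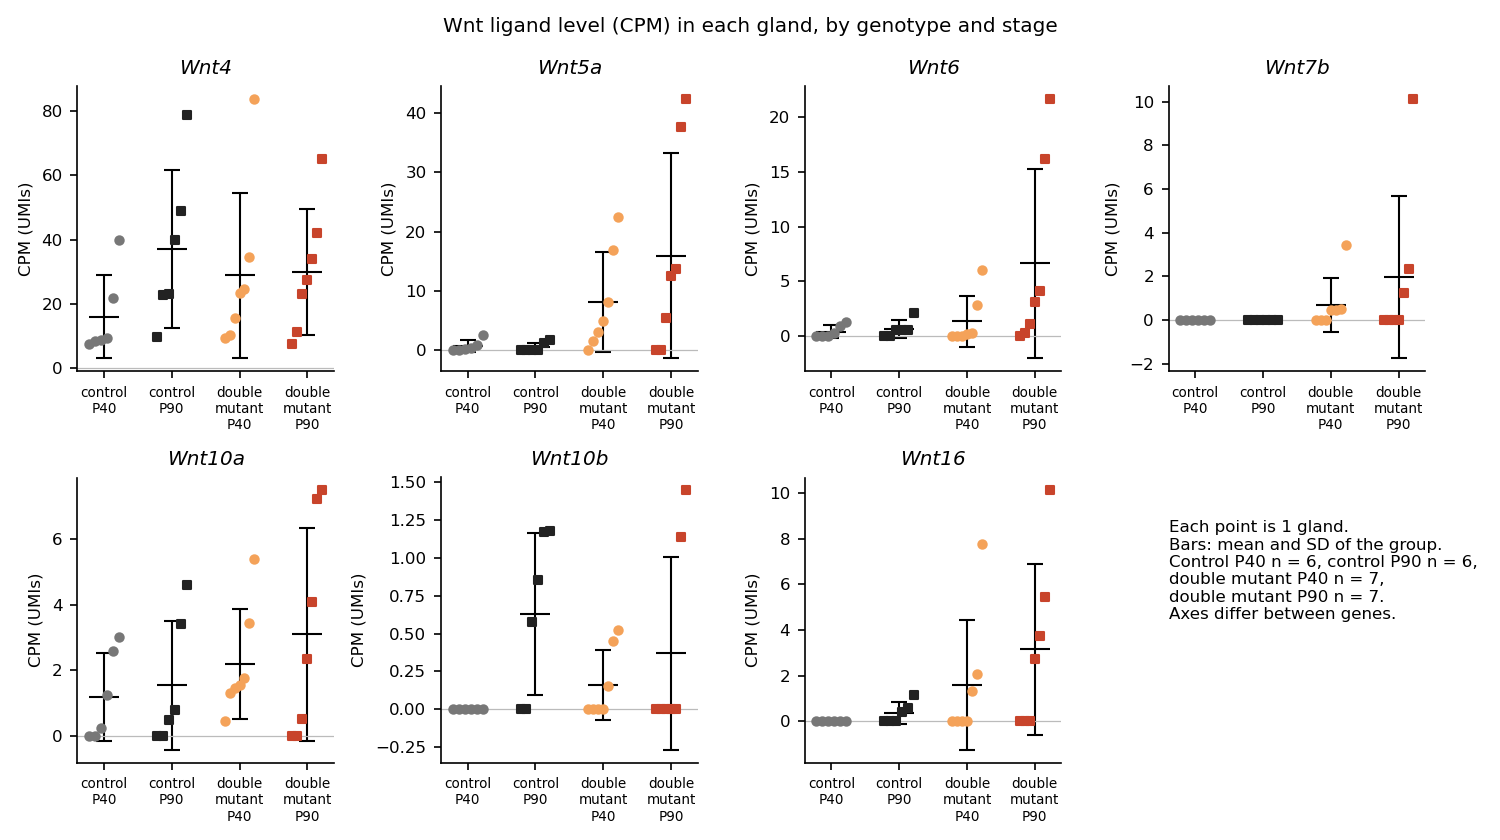
CPM of the 7 Wnt ligands (vertical axes, which differ between genes) in each of 26 glands by genotype and stage (horizontal axis), with the mean and SD of each group. Double-mutant glands reach 42.4 for Wnt5a against at most 2.58 in control glands, Wnt7b is at 0 in every control gland, and the Wnt4 groups overlap.

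Wnt6, a ligand made by many embryonic epithelia, ranged from 0 through a median of 0.430 to 2.13 CPM in control glands and from 0 through 0.714 to 21.7 in double-mutant glands. It was highest in 2 double-mutant glands at P90, and 6 of the 14 lay above every control gland. With 57 against 16 UMIs the pooled level was 4.43-fold higher, but the log2 fold change of 1.38 ± 0.70 did not pass (edgeR adjusted p 0.186). Wnt10a, mutated in human tooth and hair disorders, ranged from 0 through 0.629 to 4.599 CPM in control glands and from 0 through 1.65 to 7.48 in double-mutant glands. The groups overlapped, and the log2 fold change was 0.20 ± 0.57 (edgeR adjusted p 0.858). Its sign turned to -0.27 without batch B11.

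Wnt4, needed for kidney tubule formation and female development, was the most counted of the 7 and was present in every gland. It ranged from 7.60 through a median of 22.3 to 78.8 CPM in control glands and from 7.48 through 24.1 to 83.8 in double-mutant glands. The ranges nearly coincided. The log2 fold change was -0.33 ± 0.35 (edgeR adjusted p 0.573), and without TMM it was 0.26, below the shift of all genes under that scaling. Wnt10b, known for keeping precursor cells from becoming fat, gave 8 UMIs in 4 control glands, all at P90, and 6 UMIs in 5 double-mutant glands, which was too few to tell a difference.

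**Figure D2:**
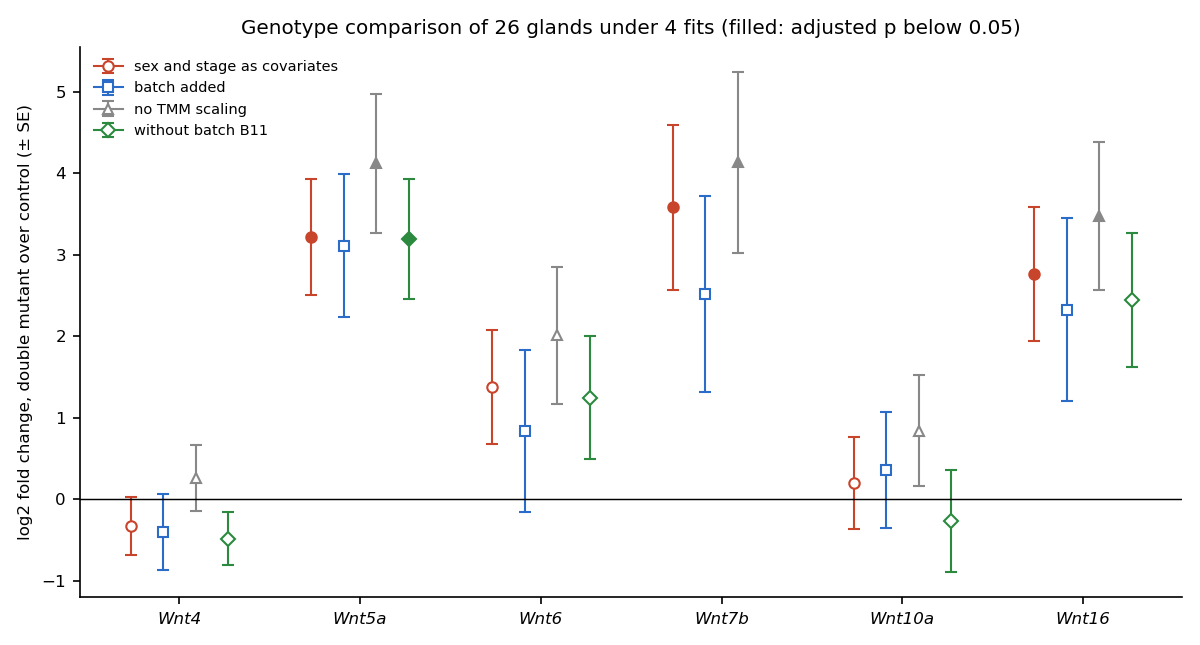
Log2 fold change of double-mutant over control glands (vertical axis, ± SE) for the 6 Wnt ligands tested (horizontal axis) under 4 fits, filled where the adjusted p is below 0.05. Wnt5a lies between 3.11 and 4.12 in all 4 fits, no ligand passes with batch as a factor, and Wnt7b has no value without batch B11.

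Glands had been processed in 8 batches, and 5 of them held both genotypes. Mean Wnt5a was higher in double-mutant glands within 5 of 5 batches, and mean Wnt16 also within 5 of 5. For Wnt5a these means were 3.45 against 1.74 CPM in batch B12, 8.34 against 0.143 in B13, 3.07 against 0.140 in B14, 13.1 against 0 in B8 and 42.4 against 0.575 in B9. For Wnt16 the control glands had 0 UMIs in B12, B13 and B14, and the UMIs were 2 against 1 in B8 and 3 against 2 in B9. Wnt7b was higher in 4 of the 5 and at 0 in both genotypes in the fifth, and Wnt6 gave the same counts. With no UMI in any control gland, Wnt7b could only be higher or tied, so its count is no support. How many of all genes were higher in every batch was not counted. Wnt10a was higher in double-mutant glands within 4 batches, Wnt4 within 2 and Wnt10b within 2.

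The genotype comparison was repeated at each stage. Wnt5a in control glands at P40 ranged from 0 through 0.281 to 2.58 CPM and in double-mutant glands at P40 from 0 through 4.95 to 22.4. At P90 its range was 0, a median of 0 and 1.71 in control glands, and 0, 12.5 and 42.4 in double-mutant glands. In each stage 5 of 7 double-mutant glands lay above the highest control gland. At P90 850 genes (4.71%) passed, and of the 6 members Wnt5a alone did, at a log2 fold change of 3.91 ± 1.08 (edgeR adjusted p 0.0343). This call was lost without the 2 libraries of doubtful sex (adjusted p 0.0736), without double-mutant P90 replicate 4 (0.0518) and with batch as a factor (0.0881). At P40 163 genes (0.904%) passed and none of the 6 members did, by edgeR. Of these, 3 had an unadjusted p under 0.05, Wnt5a at 2.68 ± 0.95 (adjusted p 0.148), Wnt16 at 4.03 ± 1.41 (0.148) and Wnt7b at 2.99 ± 1.34 (0.261). DESeq2 called none of them either, where it gave an adjusted p. An exact two-sided permutation of CPM over 1716 splits gave p 0.035 at P40 and p 0.0373 at P90 for Wnt5a, unadjusted over 14 such tests, and values above 0.05 for the other members. CPM are not scaled by TMM, so this permutation does not remove the upward shift of genes seen without TMM. The change from one stage to the other was itself not called for any member, as 1 gene (0.00554%) passed edgeR's genotype-by-stage term and no member had an unadjusted p under 0.05 there.

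Within double-mutant glands Wnt6 had medians of 0.154 CPM at P40 and 3.11 at P90, with highest values of 6.04 and 21.7. Its log2 fold change from P40 to P90 was 1.72 ± 0.81 (unadjusted p 0.0438, edgeR adjusted p 0.507). This value includes the 2 libraries of doubtful sex, P90 replicate 5 at 21.7 CPM and P40 replicate 1 at 0, whose stages a swap would exchange. No gene passed this comparison (0%), while 1712 genes had an unadjusted p under 0.05 and DESeq2 called 47. In control glands 675 genes (3.74%) differed by stage, and none of the members passed or had an unadjusted p under 0.05. Control glands of P40 and P90 never shared a batch, so stage and batch cannot be told apart there. For Wnt7b, at 0 in both control groups, no change could be estimated. Between the sexes 65 genes (0.36%) passed and 0 of the 6 members did, by edgeR. Male minus female log2 values with an unadjusted p under 0.05 were -1.80 ± 0.78 for Wnt16 (adjusted p 0.507) and -1.75 ± 0.71 for Wnt6 (adjusted p 0.474). Wnt6 passed in the male-female comparison after thinning, at -4.21 (edgeR adjusted p 0.0411). The gland with the highest Wnt6 (21.7 CPM) and Wnt16 (10.1 CPM), double-mutant P90 replicate 5, entered as female by its label but held Y-linked UMIs. Without the 2 libraries of doubtful sex the log2 values were -1.52 for Wnt16 (edgeR adjusted p 0.497) and -1.45 for Wnt6 (0.439), and -3.98 for Wnt6 after thinning, which no longer passed (0.0673).

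Both CITE-seq double-mutant glands at P70 were from females, while 1 of the 2 control glands was from a male, and the comparison had no sex term. Wnt5a was at 1.14 and 2.27 CPM in the 2 control glands and at 6.35 and 7.46 in the 2 double-mutant glands. Both double-mutant glands lay above both control glands, as also for Wnt4, Wnt6 and Wnt7b, while Wnt10b had the reverse order. With 2 glands a group such an order often arises without a change, and its share over all genes was not counted. For Wnt5a the log2 fold change was 1.23 ± 0.72 (edgeR adjusted p 0.302), where 1207 of 13096 genes (9.22%) passed. Among the 3 glands labeled female it was 0.86 ± 0.89 (edgeR adjusted p 0.573). Wnt4 was at 3.17 and 6.86 CPM in control and at 11.8 and 13.4 in double-mutant glands, with a log2 fold change of 0.66 ± 0.53 (edgeR adjusted p 0.466). The other 5 ligands had too few UMIs to be tested. Wnt7b gave 0 UMIs in the control and 4 in the double-mutant glands, Wnt6 2 and 9, Wnt10a 3 and 4, Wnt10b 2 and 0, and Wnt16 4 and 2. All 4 of these libraries held both Xist and Y-linked UMIs.

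Cells were grouped by their transcriptomes with all 19 Wnt ligands held out, so that no population was defined by a ligand. Populations were named from marker genes, and "-like" marks names built here from such lists. CSC-like cells stand for the cancer stem cell population of the study, with Axin2, Lef1, Bmp4 and Dkk4 among their markers. Basal tumor-like cells passed 5 of 7 listed markers against the other basal and myoepithelial cells, Wif1, Serpine2, Ctgf, Bgn and Meg3. Sparc and Snai2, which the paper reports as raised in its basal tumor cells, did not pass. Luminal Clu+-like cells carry Clu and Wfdc18. Of these there were 312, 530 and 606 cells in double-mutant glands and 3, 2 and 16 in control glands. Levels within a population are UMIs per 10000 UMIs of its cells, averaged over glands with at least 10 such cells.

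Wnt4 was carried by duct cells. Duct populations held 86.9% of its 769 UMIs in control glands and 72.9% of its 809 UMIs in double-mutant glands. In control glands ductal Klk1+-like cells, the striated duct type, ranged from 0.426 through 1.32 to 2.47 UMIs per 10000 over 12 glands (mean 1.41 ± 0.617, SD), and ductal Egf+-like cells from 0.548 through 1.03 to 3.39 over 9 glands (1.20 ± 0.887). Ductal progenitor-like cells had 0.752 ± 0.777 over 11 glands. In double-mutant glands the means were 2.37 ± 1.47 in Egf+-like cells of 4 glands (1.22 where 20 such cells were asked for), 2.08 ± 1.23 in Klk1+-like cells of 14 glands, 1.84 ± 0.778 in progenitor-like cells of 12 glands and 0.871 ± 0.679 in luminal Clu+-like cells of 10 glands. Within glands that held both, Klk1+-like cells were not told apart from Egf+-like cells in control glands (mean difference 0.0649, exact sign-flip test, p 0.754, adjusted p 1). A small ductal Duoxa2+-like population, with 61 control and 60 double-mutant cells, had 25 Wnt4 UMIs in control glands (3.01 UMIs per 10000, pooled) and 40 among double-mutant cells (4.15), but too few glands held 10 such cells for a mean.

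Within a population, Wnt4 could be compared between genotypes in 9 populations and Wnt10a in 1, and no comparison passed in edgeR or, where it gave an adjusted p, in DESeq2. For Wnt4 the log2 fold change was 0.15 ± 0.25 in Klk1+-like cells (edgeR adjusted p 0.921, where 0.556% of genes passed) and -0.25 ± 0.38 in Egf+-like cells (adjusted p 0.947, 0.455% of genes). In the other populations Wnt4 did not pass either, among them acinar-like (1.78% of genes passed), ductal Smgc+/Esp4+-like (1.5%), immune-like (3.51%), endothelial-like (0.217%) and 1 unnamed cluster (1.11%). Its lowest unadjusted p was in progenitor-like cells, with 0.92 ± 0.33 (p 0.00582, edgeR adjusted p 0.349, 0.414% of genes). For Wnt10a in Robo2-led basal-like cells it was 0.08 ± 0.64 (edgeR adjusted p 0.986, 0.46% of genes). The other members had too few UMIs in any population present in both genotypes.

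Wnt5a in double-mutant glands lay mainly in basal tumor-like cells, with 36.9% of its 179 UMIs, and CSC-like cells, with 26.3%. Basal tumor-like cells ranged from 0 through 1.597 to 5.05 UMIs per 10000 over 9 glands (mean 1.71 ± 1.42), and Wnt5a was found in 8 of the 9. Double-mutant P90 replicate 4 held 187 of the 530 basal tumor-like cells and 20 of their 66 Wnt5a UMIs, at 2.01 UMIs per 10000. The paper had removed this library, high in ribosomal genes, before subclustering its basal cells, while it was kept here. CSC-like cells ranged from 0.642 through 1.502 to 3.49 (1.66 ± 0.857) and had Wnt5a in all 9 glands. Fibroblast-like cells, the stromal population that carried it, ranged from 0 through 0.285 to 2.19 over 12 glands (0.637 ± 0.791) and held 24 UMIs. Basal tumor-like and CSC-like cells were not told apart over the 9 glands (mean difference 0.0545, exact sign-flip test, p 0.945, adjusted p 1). The highest basal tumor-like value came from double-mutant P90 replicate 5, and without the 2 libraries of doubtful sex the means over 7 glands were 1.28 ± 0.770 in basal tumor-like and 1.91 ± 0.798 in CSC-like cells, so their order turned. In control glands myoepithelial-like cells, the contractile cells around acini, held 7 of 18 Wnt5a UMIs, at 1.17 ± 0.828 UMIs per 10000 over 4 glands. In double-mutant glands the same cells had 0.790 ± 0.593, also over 4 glands.

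Wnt6 and Wnt16 lay mostly in CSC-like cells of double-mutant glands. These cells held 47 of 57 Wnt6 UMIs (82.5%) and 35 of 39 Wnt16 UMIs (89.7%), while they made up between 0 and 7.59% of the cells of a double-mutant gland (median 2.05%). Wnt6 ranged there from 0 through 1.51 to 3.37 UMIs per 10000 over 9 glands (1.39 ± 1.05), with UMIs in 7 glands. Wnt16 ranged from 0 through 0.563 to 4.83 (1.18 ± 1.57), with UMIs in 6 of these glands. The 35 Wnt16 UMIs lay in 19 CSC-like cells, and the 9 Wnt16 UMIs of double-mutant P40 replicate 2 in only 2 cells. The highest Wnt6 value was that of double-mutant P90 replicate 5, and without the 2 libraries of doubtful sex the means over 7 glands were 1.31 ± 0.704 for Wnt6 and 1.33 ± 1.73 for Wnt16. The next population was Robo2-led basal-like cells at 0.0712 for Wnt16 (exact sign-flip test over 9 glands, p 0.0313, adjusted p 1) and myoepithelial-like cells at 0.0956 for Wnt6. In basal tumor-like cells Wnt16 had 0 UMIs in 530 cells, against a limit of 0.082 UMIs per 10000 for 3 counts, and Wnt6 had 1 UMI. In control glands, with few CSC-like cells, 6 of 16 Wnt6 UMIs were in Robo2-led basal-like cells and 4 in myoepithelial-like cells.

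**Figure D3:**
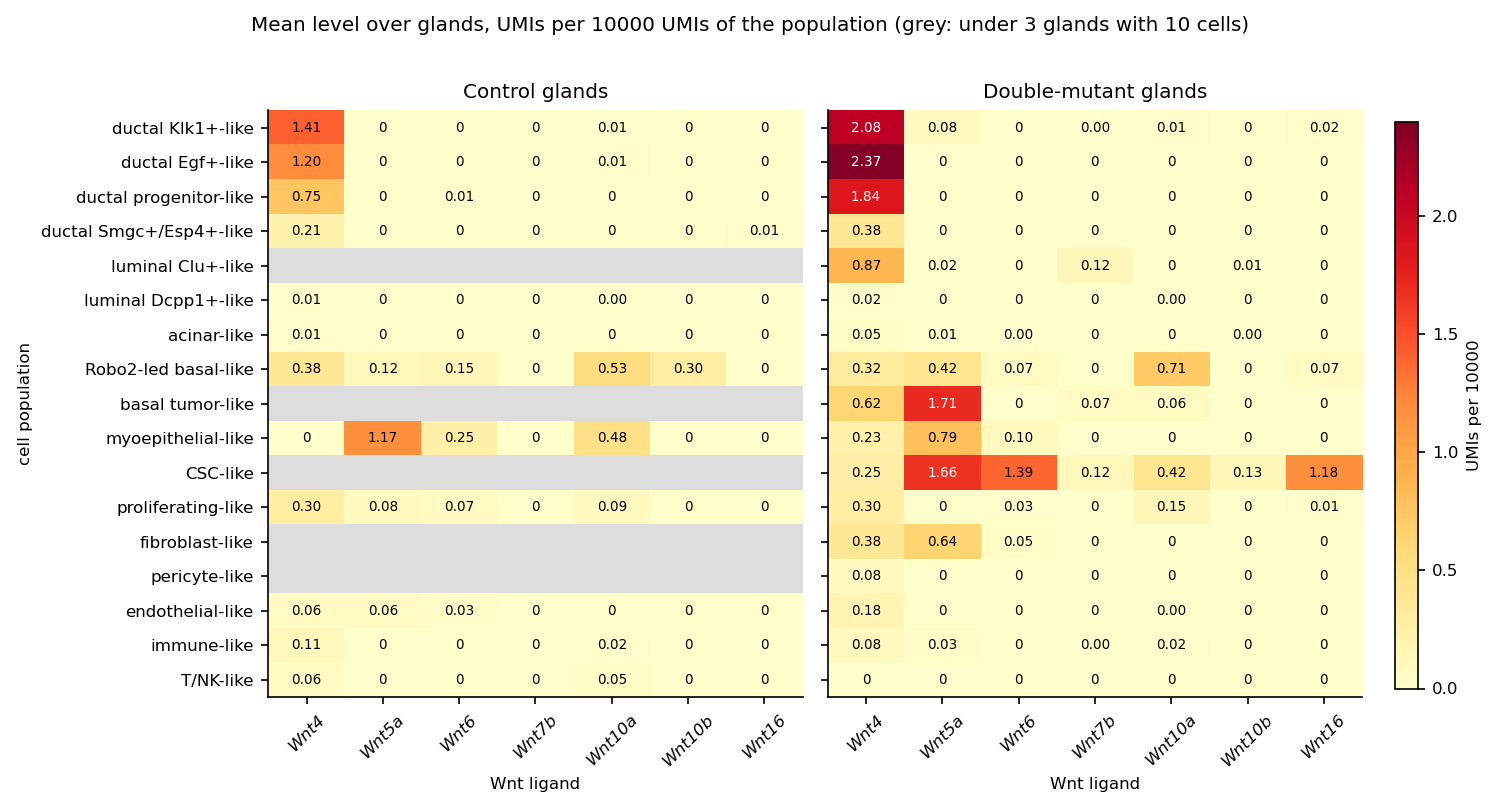
Mean UMIs per 10000 UMIs of each population (color and printed value) for the 7 Wnt ligands (columns) in 17 cell populations (rows) of control and double-mutant glands, grey where under 3 glands had 10 such cells. Wnt4 is highest in duct cells, Wnt5a in basal tumor-like (1.71) and CSC-like cells (1.66) of double-mutant glands, and Wnt6 (1.39) and Wnt16 (1.18) in CSC-like cells.

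Among populations with 10 cells in at least 3 glands, Wnt10a had its highest mean in Robo2-led basal-like cells in both genotypes. Control myoepithelial-like cells were close, at 0.481 ± 0.962 over 4 glands from 2 UMIs. A small unnamed basal population, too rare for a mean, had 4 UMIs in 24 control cells (1.53 UMIs per 10000, pooled) and 4 in 71 double-mutant cells (0.553). Pooled in this way, Robo2-led basal-like cells were at 0.719 and 0.729. Robo2-led basal-like cells, which carry Krt14, Krt5 and Trp63, ranged in control glands from 0 through 0.572 to 1.04 UMIs per 10000 over 7 glands (0.528 ± 0.402) and in double-mutant glands from 0 through 0.751 to 1.96 over 12 glands (0.707 ± 0.635). They held 20 of 42 Wnt10a UMIs in control glands and 16 of 53 in double-mutant glands, where CSC-like cells held 15 at 0.420 ± 0.464. Wnt10b in control glands had 5 of its 8 UMIs in the same basal cells, and in double-mutant glands 4 of its 6 in CSC-like cells and 0 in 314 Robo2-led basal-like cells, against a limit of 0.137 UMIs per 10000. Wnt7b was spread over the mutant populations, with 7 UMIs in luminal Clu+-like, 5 in CSC-like and 4 in basal tumor-like cells of 19 in all.

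Together CSC-like, basal tumor-like and luminal Clu+-like cells held 89.7% of the Wnt16 UMIs of double-mutant glands, 84.2% of Wnt6, 84.2% of Wnt7b, 83.3% of Wnt10b, 64.3% of Wnt5a, 37.7% of Wnt10a and 10.5% of Wnt4. These cells were nearly absent from control glands, so the ligands could not be compared between genotypes within them. The summed CSC marker list, with all 8 genes detected in both genotypes, ranged from 1.001 to 105 CPM in control and from 12.1 to 1015 in double-mutant glands. The 7 basal tumor markers, all detected, ranged from 22.3 to 233 and from 49.1 to 1435, and the 6 fibroblast markers, all detected, from 37.5 to 297 and from 106 to 1121. The part of these shifts in the whole-gland changes was not tested.

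**Figure D4:**
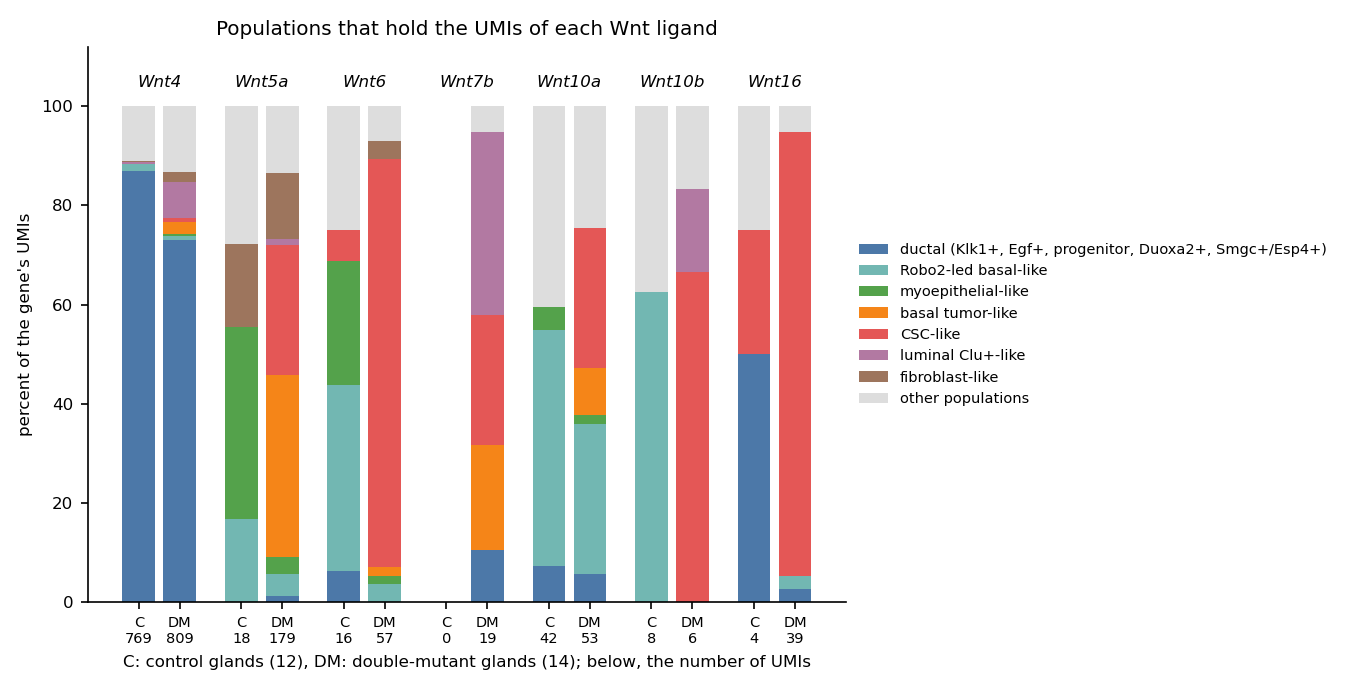
Percent of each ligand's UMIs (vertical axis) held by each cell population (colors) in control (C) and double-mutant (DM) glands, with the number of UMIs below each bar. Duct cells hold most Wnt4 in both genotypes, CSC-like cells 89.7% of Wnt16 and 82.5% of Wnt6 in double-mutant glands, and Wnt7b has no control bar.

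Free RNA can give UMIs in cells that do not make a gene, so T/NK-like cells served as a measure of it. In double-mutant glands 325 T/NK-like cells (median 428 UMIs per cell) held 1 UMI of Wnt5a and 0 of the other 6 ligands. Among 312 CSC-like cells (median 739.5 UMIs) 11.5% had a Wnt5a UMI (Clopper-Pearson 95% interval 8.21 to 15.6), 11.2% a Wnt6 UMI (7.94 to 15.3) and 6.09% a Wnt16 UMI (3.71 to 9.35). The Wnt5a share in T/NK-like cells was 0.308% (0.00779 to 1.70), and 0 cells allowed a share of up to 0.923% for the others. For Wnt4 the background was not 0 everywhere. In double-mutant glands 11 of 704 endothelial-like cells (1.56%, median 600.5 UMIs) and 11 of 2002 immune-like cells (0.549%, median 573 UMIs) had a Wnt4 UMI. In control glands 140 T/NK-like cells held 1 UMI of Wnt4 and 1 of Wnt10a, and 5 of 311 endothelial-like cells had Wnt4 (1.61%). The share in Klk1+-like cells was 18.5% in control (median 1291 UMIs) and 22.8% in double-mutant glands (median 1279 UMIs). Of 26 comparisons with T/NK-like or endothelial-like cells over glands, none passed after adjustment. The lowest adjusted p of 0.0677 (exact sign-flip test) was shared by Wnt5a in basal tumor-like cells, higher than in endothelial-like cells in 8 of 9 glands, by Wnt10a in Robo2-led basal-like cells of double-mutant glands, higher in 8 of 12, and by Wnt4 in Klk1+-like cells of control glands, higher in 8 of 8. Among 83 comparisons of neighbors in the order of populations, none passed either, and the lowest unadjusted p was 0.0156, for Wnt4 in Egf+-like over progenitor-like cells of control glands, higher in 7 of 8.

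CSC-like cells of double-mutant glands, without P90 replicate 4, which the study had left out and which held 65 of the 312, were split into CSC 1-like cells with basal keratins (165 cells) and CSC 2-like cells with luminal keratins (82 cells). Wnt16 had 28 UMIs in CSC 1-like and 4 in CSC 2-like cells, Wnt5a 28 and 11, Wnt6 23 and 12, Wnt10a 6 and 6, Wnt4 4 and 2, Wnt7b 4 and 1 and Wnt10b 4 and 0. Over the 4 glands with 5 cells of each, Wnt5a was at 1.83 ± 0.739 and 0.780 ± 1.13 UMIs per 10000 and higher in CSC 1-like cells in 3 of 4 (exact sign-flip test, p 0.375, adjusted p 0.875). Wnt16 was at 1.51 ± 1.03 and 1.26 ± 2.32 (exact p 1). With 4 glands the smallest possible p was 0.125, so no difference could have passed. Of the 312 CSC-like cells 90 had a UMI of at least 1 of the 7 ligands and 21 of at least 2 different ones, against 65 and 7 of 530 basal tumor-like cells.

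Genes with the most similar pattern were sought for Wnt4 and Wnt5a, the members with at least 100 UMIs, by Pearson's r of log2 levels over 27 populations and 10080 genes. These correlations are descriptions, since populations share libraries. For Wnt4 they were Alox12 (r 0.934), a lipoxygenase, Wfdc2 (0.932), a secreted protease inhibitor family member, and Nme7 (0.930), a ciliary and centrosomal kinase family member. For Wnt5a they were Wif1 (0.984), a secreted Wnt inhibitor, Ptk7 (0.925), a receptor-like protein of planar cell polarity, and Ptch1 (0.922), the Hedgehog receptor. Wif1 is also a basal tumor marker.

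The rest of the pathway was described by lists in the whole-gland genotype comparison, where 14% of all genes passed. The lists were chosen with earlier results of these data known, so their counts are descriptions and no test against that share. Of 16 receptor genes tested 3 rose and none fell, Ror2, the Wnt5a receptor, by a log2 fold change of 3.55 ± 0.76 (edgeR adjusted p 0.00289), Fzd1 by 1.41 and Ptk7 with an adjusted p of 0.0274. Of 13 secreted inhibitors 9 were tested and 7 rose, among them Wif1 by 6.72, Dkk4 by 5.601, Dkk2 by 4.55, Sostdc1 by 2.91, Notum, which removes the lipid of Wnt proteins, by 2.57 and Sfrp1 by 2.13. The secretion genes Porcn (-0.03 ± 0.38) and Wls (-0.06 ± 0.12) did not pass. Of 9 genes of the R-spondin module 6 were tested and 1 rose, the receptor Lgr6 by 1.74. Of 6 β-catenin targets 3 rose, Nkd1 by 3.43, Axin2 by 3.26 and Sp5 by 2.99. Of the 12 other Wnt ligands 3 were tested and 1 rose, Wnt11 by 2.22 ± 0.70 (edgeR adjusted p 0.0319). Wnt11 passed the filter on low counts only through its double-mutant UMIs, so it could not readily have been called lower.

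In bulk RNA, with 1 library of each genotype and no test, levels are given per transcript length as TPM. Wnt4 led with 5.92 TPM in the control gland and 2.90 in the double-mutant gland, from 977 and 475 counts. Wnt10b was at 0.381 and 0.110 TPM, from 35 and 10 counts. Both were lower in the double-mutant gland, with CPM ratios of 0.483 (95% interval 0.432 to 0.540) for Wnt4 and 0.284 (0.125 to 0.586) for Wnt10b. Wnt10a was at 0.175 and 0.114 TPM, Wnt6 at 0.139 and 0.152, and Wnt5a at 0.156 and 0.184, with a ratio of 1.16 (0.774 to 1.74) for Wnt5a. Wnt7b was at 0.0115 and 0.0872 TPM, from 2 and 15 counts, with a ratio of 7.45 (1.73 to 67.2), and Wnt16 at 0.0117 and 0.0471 TPM, from 2 and 8 counts, with a ratio of 3.98 (0.793 to 38.4). The counts of Wnt5a and Wnt7b may hold reads of their antisense partners, and the intervals cover counting error only.

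**Figure D5:**
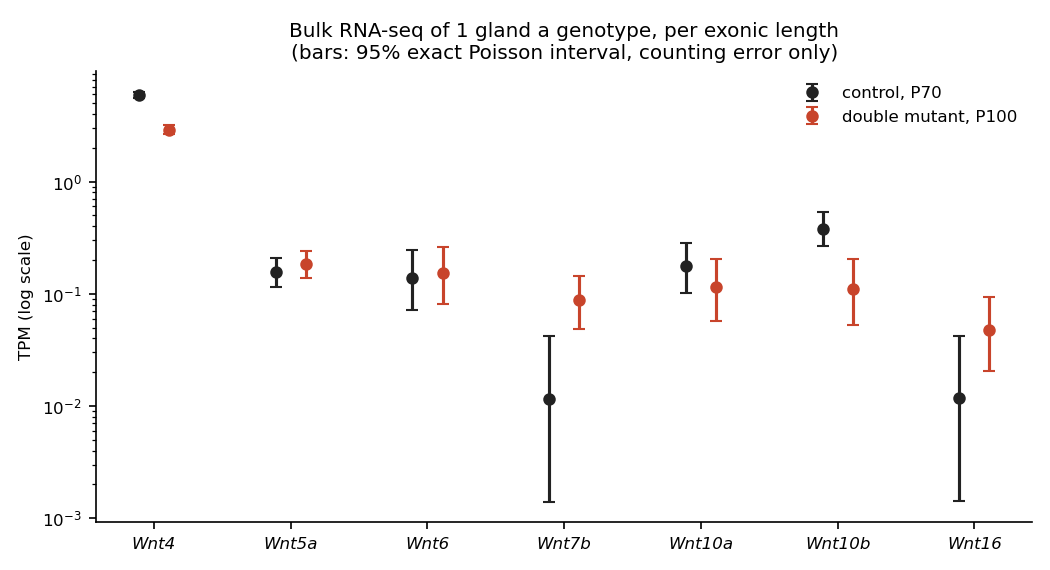
TPM of the 7 Wnt ligands (vertical axis, logarithmic) in 1 bulk control gland at P70 and 1 bulk double-mutant gland at P100, with 95% counting intervals. Wnt4 is highest in both, at 5.92 and 2.90, and the intervals of Wnt5a, Wnt6, Wnt10a and Wnt16 overlap between the glands.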

How the data were processed

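Drop-seq was deposited by the authors as UMI counts per gene and cell barcode, made with Drop-seq tools and STAR on mm10 with GENCODE vM7 plus Cre and EYFP and cut at the knee of barcode counts. CITE-seq RNA was deposited the same way after removal of added human cells. Bulk libraries were deposited as exon counts from featureCounts, without a strand option. The counts carry no normalization. Antibody tag tables were not used.

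Groups, sex, stage, batch and replicate come from the sample titles. The members and gene lists were chosen with earlier results of these data known. Named besides the 7 members are genes of fixed pathway lists that passed, at most 6 a list by size of change, and the 3 most alike genes of members with at least 100 UMIs.

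Barcodes with at least 100 genes and under 15% mitochondrial UMIs were kept (CITE-seq also under 2500 genes), 23346 Drop-seq and 2535 CITE-seq cells. The UMIs of each gland were added up, also separately for every population in which that gland had 10 or more cells, and the sums were tested with edgeR 4.0.16 (quasi-likelihood, TMM, limma 3.58.1, R 4.3.3), keeping genes with 15 UMIs and a UMI in 6 glands (3 sums within populations, 2 CITE-seq glands). The covariates were sex and stage for genotype, and sex for the contrasts of the 4 groups. CITE-seq had none. An SE is the log2 fold change divided by the square root of F. Cells were clustered with scanpy 1.11.5 (Leiden, resolution 1, 2000 variable genes, 30 components, 20 neighbors), 29 clusters of which 23 were named by 3 markers at 1.5-fold and 5% of cells, leaving 3260 cells in unnamed clusters. No doublet caller was run, and an alternative left out the cells above the 95th percentile of UMIs of each library. Levels of populations were compared over glands by exact two-sided sign-flip tests, and stages by exact permutation, with a pseudocount of 0.1 in log2 ratios. Alternatives were DESeq2 1.42.0, no TMM, other filters, all barcodes, thinning, batch or replicate factors and libraries left out. The omissions of batch B11, of single glands and, for population levels and the thinned sex comparison, of the 2 libraries of doubtful sex were added after the data had been seen.

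On simulated counts of the whole-gland genotype comparison (18039 genes, 17599 of them tested), 30 of 100 genes changed 2-fold and 71 of 100 changed 4-fold were recovered, and 6 unchanged genes were called, so a 2-fold change would often be missed. Nothing states that glands of a group came from separate litters, and p-values measure the spread between glands. Counting intervals are Clopper-Pearson or exact Poisson at 95%, and a count of 0 was taken to allow 3 counts. Both cover counting error only. DESeq2 gave no adjusted p for 13 values of the members, which were left out. Replicate numbers are names only, because among 37 same-numbered pairs of glands the correlation of deviations from the group means ranged from -0.377 to 0.545 and 17 exceeded 0.1.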

Additional observations from a re-analysis of the deposited data

Results flagged for a closer look

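In 6 of 24 combinations of ligand and group the highest gland stood apart from the others by Dixon's test. The usual rate of 1 in 20 for this test assumes normally distributed values. Most of the 6 rest on a few UMIs, and whether 6 of 24 is more than chance would give was not tested. For Wnt4 it was double-mutant P40 replicate 1, a library whose sex-linked genes went against its label, at 83.8 CPM from 186 UMIs against 34.6 in the next gland. For Wnt5a it was control P40 replicate 1 at 2.58 CPM, from 6 UMIs, against 0.901. Wnt6 in control P90 replicate 1 was at 2.13 CPM, from 5 UMIs, against 0.595. Double-mutant P40 replicate 2, of batch B11, stood apart for Wnt7b at 3.45 CPM, from 4 UMIs, against 0.522. It also did for Wnt16 at 7.76 CPM, from 9 UMIs in 2 cells, against 2.09. Wnt7b was also apart in double-mutant P90 replicate 5, of the same batch and with sex-linked genes against its label, at 10.1 CPM from 7 UMIs against 2.33.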

How the results depend on the processing

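Of the alternative values of the members, 695 kept their direction and side of the threshold, 35 changed sign, 9 lost a call and 7 gained one, and 1 level moved by more than its SD. The cause of these changes was not tested. No member that changed sign passed the threshold in either setting.

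Over the 26 fits that each left out 1 gland, the whole-gland genotype comparison called between 1853 and 3721 genes. The log2 fold change of Wnt5a stayed between 3.01 and 3.60 (highest adjusted p 0.00745), that of Wnt7b between 3.30 and 3.77 in the 25 fits that tested it (0.0406), that of Wnt16 between 2.26 and 3.16 (0.0616), that of Wnt6 between 1.19 and 1.72, that of Wnt4 between -0.58 and -0.14 and that of Wnt10a between -0.21 (without double-mutant P40 replicate 1) and 0.60. Wnt7b could not be tested without double-mutant P90 replicate 5 either alone or with others of batch B11, nor after thinning. With DESeq2 the whole-gland values were 3.68 for Wnt5a (adjusted p 0.000157) and 2.89 for Wnt16 (adjusted p 0.0351).

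DESeq2 called 706 genes at P40, 1473 at P90, 47 by stage in double-mutant and 1021 in control glands, 7 by genotype and stage together, and 635 in CITE-seq, with 4 in Egf+-like and 14 in progenitor-like cells. It turned the control stage change of Wnt6 (-0.13) and Wnt10a (-0.036) and Wnt4 in Egf+-like cells (0.069). Without TMM 6886 genes were called by genotype, 1287 at P40, 35 by sex, 2914 in CITE-seq, 62 in Egf+-like, 50 in progenitor-like and 43 in Robo2-led basal-like cells. Wnt4 then turned to 0.26 by genotype, 0.049 by stage in double-mutant glands and 0.54 in Egf+-like cells, and Wnt10a to 0.063 by stage in double-mutant glands.

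With filterByExpr 38 genes were called by sex, 1 in Egf+-like, 18 in Klk1+-like, 8 in progenitor-like and 6 in Robo2-led basal-like cells. With no filter the calls were 269 by sex, 1313 at P40, 1809 at P90, 627 by stage in double-mutant and 1523 in control glands, 189 by genotype and stage together and 2356 in CITE-seq. Wnt5a and Wnt16 then passed at P40 (2.68 and 4.03), Wnt7b (4.20) and Wnt4 (-0.94) at P90 and Wnt4 by stage in control glands (0.89), while Wnt10a turned in control glands by stage (-0.00077) and in Robo2-led basal-like cells (-0.040).

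With all barcodes CITE-seq gave 433 genes, and Wnt4 turned by genotype (0.12), Wnt10a at P90 (-0.074) and Wnt6 by stage in control glands (-0.089). Without the 2 libraries of doubtful sex 367 genes were called at P90 and 0 by genotype and stage together. Wnt10a then turned by genotype (-0.27), at P40 (-0.44), at P90 (-0.088), by stage in double-mutant (0.27) and control glands (-0.082) and by genotype and stage together (0.35), and Wnt4 at P40 (-0.19) and by stage in double-mutant glands (0.10). Without double-mutant P90 replicate 4 1140 genes were called by stage in control glands and 3 by genotype and stage together, and Wnt10a turned at P90 (-0.33). Thinned glands gave 40 genes by sex, 32 at P40, 1 by stage in double-mutant and 75 in control glands and 2 by genotype and stage together, with Wnt10a at -1.34 by stage in control glands and 0.90 by genotype and stage together, and Wnt6 at -1.68 in the latter. Without batch B11 Wnt10a turned to -0.27.

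With batch as a factor 313 genes were called by genotype, 14 by sex, 11 at P40, 103 at P90 and 6 by stage in double-mutant glands. No member passed, Wnt6 turned at P40 (-0.75) and Wnt5a by stage in double-mutant glands (-0.092). The replicate block, which pairs nothing here, gave 3945 genes by genotype, 34 by sex, 811 at P40, 1702 at P90, 1 by stage in double-mutant glands, 1832 in CITE-seq, 4 in Egf+-like and 9 in Robo2-led basal-like cells. Under the block Wnt6 turned by stage in control glands (-0.13), Wnt4 in Klk1+-like cells (-0.16) and Wnt10a in Robo2-led basal-like cells (-0.49). The block moved no call of a member.

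Sums of at least 5 cells gave 71 genes in Egf+-like cells and Wnt10a at -0.19 in Robo2-led basal-like cells. The fit of Egf+-like cells with 20 cells a gland, and 6 levels of sub-clustered populations at resolution 0.7, were not run. Where 20 cells were asked for, Wnt6 in myoepithelial-like cells of control glands was at 1.001 UMIs per 10000, from fewer glands. With 3 cells a CSC-like sub-cluster Wnt6 turned (0.357), and with double-mutant P90 replicate 4 so did Wnt6 (0.0558) and Wnt7b (0.217), CSC 1-like minus CSC 2-like. In CITE-seq, leaving out 1 gland gave between 261 (without double-mutant replicate 2) and 1790 genes, where the lone gland of a genotype is assumed to vary like the others.

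At these depths most members had under 100 UMIs, so differences in them were detectable only where large. Shares and levels of double-mutant glands at P90 rest on the shallowest libraries.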

Other observations

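Other Wnt ligands were rare too. Over the 26 glands Wnt5b gave 44 UMIs, Wnt9a 36, Wnt11 28, Wnt7a 14, Wnt2 8, Wnt8b 3, Wnt9b 2 and Wnt2b 1, and no UMI was seen of Wnt1, Wnt3, Wnt3a and Wnt8a. In bulk RNA Wnt5b, a close relative of Wnt5a, was at 0.517 TPM in the control gland and 0.251 in the double-mutant gland, from 54 and 26 counts, with a CPM ratio of 0.478 (95% interval 0.288 to 0.778). Wnt9a was at 0.160 and 0.193 TPM, and Wnt2b at 0.103 and 0.0916. Wnt11 rose by genotype in the Drop-seq glands, by a log2 fold change of 2.22 ± 0.70 (SE, 12 control and 14 double-mutant glands, edgeR adjusted p 0.0319). In bulk it had 8 and 7 counts in bulk, with a ratio of 0.870 (0.268 to 2.74).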
